A study of Mus musculus with 12 samples.

Results

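The heat shock proteins and their DnaJ cochaperones were taken from the liver arrays as every probe set annotated to a single gene symbol that begins with Hsp90, Hspa, Hspb, Hspd, Hspe or Hsph and a number, or with Dnaja, Dnajb or Dnajc and a digit. Hspa5, Hsp90b1 and Dnajb9, which work in the endoplasmic reticulum, were left out. This gave 67 genes of 20422, read by 687 of 212138 probe sets with 1 symbol. The value of a gene was the mean of the log2 intensities of its probe sets, from 1 probe set for Hspa1a, Hspb2 and Hspb9 to 57 for Dnajc13. There were 12 genes of the HSP70 and HSP110 families, 2 of HSP90, 2 mitochondrial chaperonins, 7 small heat shock proteins by symbol (Hspb), and 4 DNAJA, 12 DNAJB and 28 DNAJC genes.

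Male C57Bl/6J mice were studied at 20 weeks of age, having been exposed to their diet through the mother and then kept on it. All 4 groups, the control included, ate the Trans fat (TFA) diet, with 20% w/w hydrogenated shortening and 8.68% w/w Trans fatty acids. The additives were given in the drinking water: monosodium glutamate at 0.75 g/L (MSG+TFA), aspartame at 0.25 g/L (ASP+TFA), or both at those concentrations (ASP+MSG+TFA), while the TFA group drank plain water. Each diet had 3 Affymetrix Mouse Gene 1.0 ST arrays, each hybridised with RNA pooled from 5 mice, so the errors below describe pools of mice, and 3 arrays a diet limit their precision. A diet without TFA was not analysed here.

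Heat shock proteins bind unfolded or partly folded proteins and keep them from aggregating. HSP70 proteins do so in a cycle driven by ATP, in which DnaJ proteins deliver the client and start ATP hydrolysis through their J domain, HSP110 proteins exchange the nucleotide, and HSP90 takes over many clients such as kinases and steroid receptors. Heat, oxidation and other stresses release the transcription factor Hsf1, which binds heat shock elements upstream of the inducible members, so that these RNAs are used as a readout of protein folding stress in liver as in other tissues.

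The heat shock element is built of alternating nGAAn blocks, and the 250 bases before the transcription start of each gene were searched for the pairs GAANNTTC and TTCNNGAA, each of which reads the same on both strands. Promoter sequence (RefSeq, build GRCm38.p6) was matched for 53 of the 67 genes, some with a window for each of several start sites. Counting a gene that held a match in any of its windows, 12 of the 53 did (22.64%), against 3932 of 27025 genes (14.55%). Among 11 genes of the list of known heat-inducible genes that had a window, 8 held a match in some window (72.73%). These 11 include Hspb1 and Hspa1b, which are not among the 67 members, and the windows of Hspa1a and Hspa1b are nearly the same. Among the 44 members outside that list, 6 held a match (13.64%). The list was made of genes known to be inducible, so its share is a description. A gene with several windows has more chances of a match. With only the window of the outermost annotated start, 8 of the 53 members held one (15.09%), against 12.84% of all promoter windows. By that count it was 6 of the 11 listed genes (54.55%) and 4 of the 44 other members (9.09%). Upstream sequence is shown for Hsph1, whose pattern over the pools is the one most shared below, for Hspe1, Hspa1a and Hspb1, whose windows hold matches too, and for Dnajb1, the member that varied most and whose windows held none. For each of these genes the window of the outermost annotated start is shown. Capitals mark the matches, and each line runs 5′ to 3′ on the strand of the gene.
Hsph1: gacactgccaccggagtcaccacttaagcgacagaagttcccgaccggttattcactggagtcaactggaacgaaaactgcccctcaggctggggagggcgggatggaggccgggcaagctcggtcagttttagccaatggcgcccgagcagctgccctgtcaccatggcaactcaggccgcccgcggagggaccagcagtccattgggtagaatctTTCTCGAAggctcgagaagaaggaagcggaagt
Hspe1: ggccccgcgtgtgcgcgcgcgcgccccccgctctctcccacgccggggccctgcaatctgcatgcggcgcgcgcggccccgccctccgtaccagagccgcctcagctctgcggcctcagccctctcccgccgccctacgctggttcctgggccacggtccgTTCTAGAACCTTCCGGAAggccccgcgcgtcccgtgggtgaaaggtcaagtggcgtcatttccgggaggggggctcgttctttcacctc
Hspa1a: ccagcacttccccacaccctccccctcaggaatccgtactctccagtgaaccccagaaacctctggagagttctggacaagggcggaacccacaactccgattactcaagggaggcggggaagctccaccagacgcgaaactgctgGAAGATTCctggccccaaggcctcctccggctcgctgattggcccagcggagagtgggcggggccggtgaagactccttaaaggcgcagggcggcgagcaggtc
Hspb1: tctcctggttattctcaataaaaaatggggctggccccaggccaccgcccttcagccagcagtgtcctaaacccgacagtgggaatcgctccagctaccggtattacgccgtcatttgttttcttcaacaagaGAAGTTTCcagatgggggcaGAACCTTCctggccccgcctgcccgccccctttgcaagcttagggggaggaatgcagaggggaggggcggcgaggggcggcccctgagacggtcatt
Dnajb1: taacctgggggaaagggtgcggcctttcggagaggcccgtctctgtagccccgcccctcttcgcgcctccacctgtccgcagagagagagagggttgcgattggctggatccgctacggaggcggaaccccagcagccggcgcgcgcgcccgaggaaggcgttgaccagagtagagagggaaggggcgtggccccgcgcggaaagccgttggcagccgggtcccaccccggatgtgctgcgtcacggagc
The windows lie at chr5:149636337-149636586 on the minus strand for Hsph1, at chr1:55087898-55088147 on the plus strand for Hspe1, at chr17:34972157-34972406 on the minus strand for Hspa1a, at chr5:135887669-135887918 on the plus strand for Hspb1 and at chr8:83607925-83608174 on the plus strand for Dnajb1. The 3 matches of Hspe1 overlap each other. The match in the Hsph1 window begins 33 bases before the start. Hspa4l and Hspb8 held no match, and Dnajb4 and Hspd1 held one only in a second window. A match is a string of letters and was not tested as a binding site.

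None of the 67 genes passed an adjusted P under 0.05 (limma, Benjamini-Hochberg over all 20422 genes) in the F test for diet or in any of 7 pairwise or interaction contrasts. Over all genes the F test called 0.113%, MSG+TFA against TFA 0.0196%, ASP+TFA against TFA 0.284%, ASP+MSG+TFA against TFA 0.0392%, the interaction of the additives 0.0686%, ASP+MSG+TFA against ASP+TFA 0.0245%, ASP+MSG+TFA against MSG+TFA 0.0049% and ASP+TFA against MSG+TFA 0%. The smallest adjusted P of a member was 0.455 for Dnajc17 in the F test, 0.761 for Dnajb1 with MSG, 0.330 for Dnajc27 with ASP and 0.317 for Dnajc17 with both additives. At an unadjusted P under 0.05, 2 members (2.99%) stood out in the F test, against 9.16% of all genes. In the comparisons with TFA the counts were 3 with MSG (4.48%, against 5.81% of all genes), 7 with ASP (10.4%, against 10.1%) and 6 with both (8.96%, against 10.1%). For the interaction it was 0 members, against 7.39% of all genes, and for ASP+TFA against MSG+TFA 0 members, against 5.7%. These shares lay near or below the share of all genes.

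**Figure D1:**
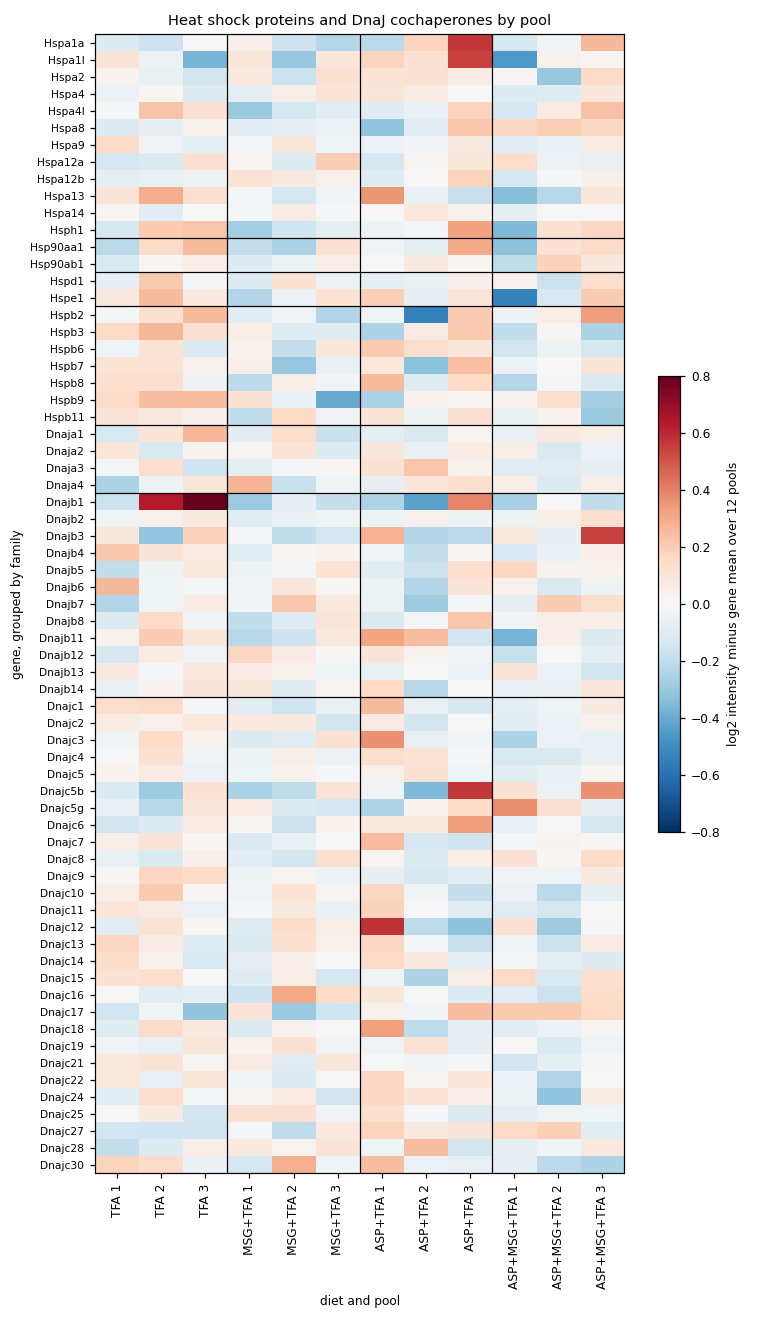
Log2 intensity of each of the 67 genes in each of the 12 pools, as the difference from the gene's mean over the pools (colour), with genes grouped by family on the vertical axis and pools grouped by diet on the horizontal axis. Dnajb1 is the strongest row, high in TFA pools 2 and 3 and in ASP+TFA pool 3, and most other rows show little colour.

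The intervals bound how large a change could have been missed. The 95% interval of the difference from TFA lay within a 1.4-fold change in either direction for 58 members with MSG (86.6%, against 88.7% of all genes), for 61 with ASP (91%, against 85.7%) and for 57 with both (85.1%, against 85.4%). The median log2 difference from TFA was -0.036 for the members with MSG, 0.00046 with ASP and -0.057 with both, where the medians of all genes were 0.0036, 0.022 and 0.0072. Values below zero were found for 47, 33 and 47 of the 67 members (70.1%, 49.3% and 70.1%, against 48.7%, 42.7% and 47.8% of all genes) in these 3 comparisons, which share the TFA pools. No 2 of the 12 arrays held identical values, and their correlations ranged from 0.983 to 0.994. Over the 12 pools a member spanned between 0.175 log2 units (Hspa14) and 1.23 (Dnajb1), with a median span of 0.423. The median residual SD was 0.127 for the members and 0.129 for all genes.

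**Figure D2:**
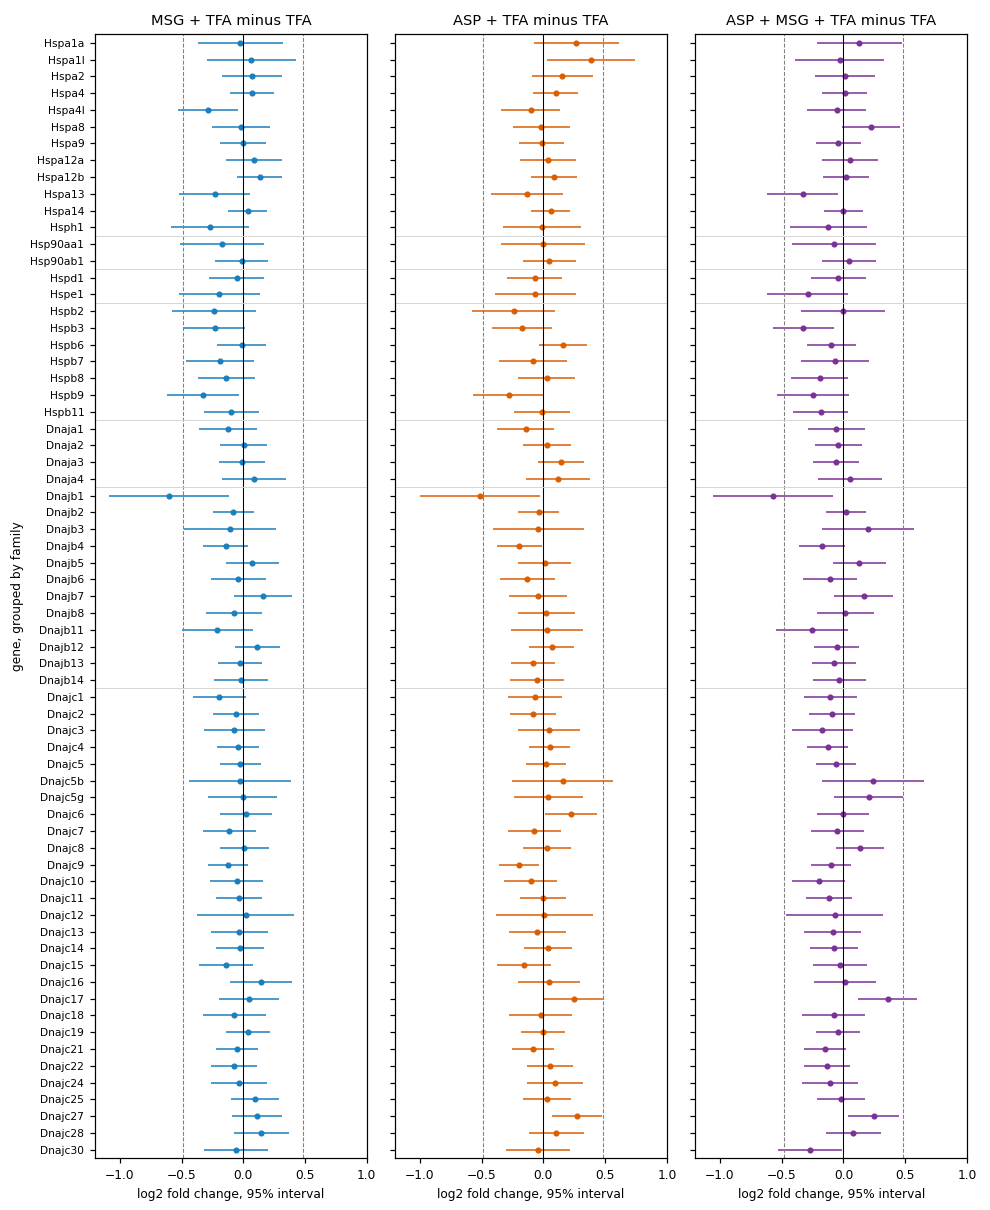
Log2 fold change of each of the 67 genes against TFA (points) with its 95% interval from limma (lines), from left to right for MSG+TFA, for ASP+TFA and for both additives. Dashed lines mark a 1.4-fold change, and only Dnajb1 has a point beyond one of them, at -0.60, -0.51 and -0.57.

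Dnajb1, the heat-inducible J-domain partner of HSP70, had the largest differences from TFA. It measured 7.41, 8.21 and 8.37 in the TFA pools, 7.29, 7.51 and 7.39 with MSG, 7.34, 7.15 and 7.96 with ASP, and 7.32, 7.58 and 7.38 with both additives. TFA pools 2 and 3 were the highest of all 12, ASP+TFA pool 3 came next, and TFA pool 1 lay among the pools of the other diets, so the groups overlapped. The log2 difference was -0.60 ± 0.23 (SE) with MSG (adjusted P = 0.761, limma), -0.51 ± 0.23 with ASP (adjusted P = 0.462) and -0.57 ± 0.23 with both (adjusted P = 0.416). All 4 probe sets of the gene were lower on average than TFA in each of the 3 comparisons, with TFA pools 2 and 3 high in each. Leaving out a single pool moved the MSG difference between -0.90 (without TFA pool 1) and -0.41 (without TFA pool 3), the ASP difference between -0.81 and -0.33 and that with both between -0.87 and -0.38, at the same pools. The median of the probe sets gave -0.21 with ASP (adjusted P = 0.836, limma).

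Markers of pancreatic acinar cells, whose tissue lies next to the liver, also varied between pools, with a mean over 15 of 18 listed genes of 6.09, 7.20 and 7.25 in the TFA pools, 8.55 in ASP+TFA pool 3, 7.74 and 8.05 in ASP+MSG+TFA pools 1 and 2, and between 6.07 and 6.69 elsewhere. They were thus high in the 3 pools with the most Dnajb1. They were also high in ASP+MSG+TFA pool 2, which had the next highest Dnajb1 value (7.58), and in ASP+MSG+TFA pool 1, where Dnajb1 was low (7.32). The correlation of Dnajb1 with the acinar marker mean over the 12 pools was 0.518. Without ASP+TFA pool 3 and ASP+MSG+TFA pools 1 and 2 the Dnajb1 difference was -0.76 with ASP and -0.62 with both additives, the latter from the 1 ASP+MSG+TFA pool left. The part of acinar RNA in the Dnajb1 values was not tested. Defining hepatocyte markers were at a mean of 13.20 to 13.37 in every pool.

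**Figure D3:**
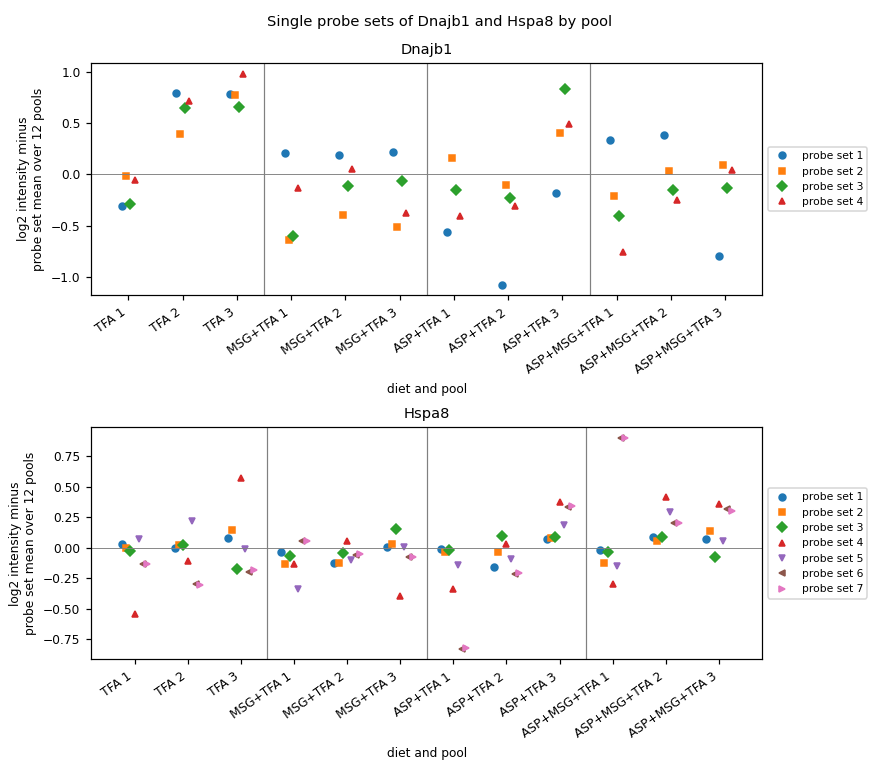
Each probe set of Dnajb1 (top) and Hspa8 (bottom) in the 12 pools, as log2 intensity minus the mean of that probe set (vertical axis). Each of the 4 Dnajb1 probe sets is high in TFA pools 2 and 3, and in Hspa8 probe sets 6 and 7, which differ by at most 0.0193, carry most of the spread.

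The HSP70 and HSP110 genes are the core ATPases and their exchange factors. Hspa1a, the strictly inducible HSP70, measured 7.23, 7.17 and 7.33 with TFA, 7.38, 7.17 and 7.11 with MSG, 7.12, 7.52 and 7.90 with ASP, and 7.21, 7.31 and 7.60 with both. Hspa8, the constitutive HSP70, measured 12.78, 12.82 and 12.92 with TFA, 12.80, 12.82 and 12.84 with MSG, 12.57, 12.80 and 13.10 with ASP, and 13.05, 13.08 and 13.05 with both. The ASP+TFA pools were the most spread for both genes, and the 3 ASP+MSG+TFA pools of Hspa8 lay above every TFA and MSG+TFA pool. For Hspa8 the log2 difference of ASP+MSG+TFA was 0.24 ± 0.11 (SE) from MSG+TFA (adjusted P = 0.799, limma) and 0.24 ± 0.11 from ASP+TFA (adjusted P = 0.590). It rested on 2 of 7 probe sets that hold nearly the same values: with the median of the probe sets the differences were -0.014 and -0.045. Hspa8 also had the highest correlation of the 13 heat shock features described below with the mean of acinar markers (r = 0.711 over 12 pools), and without the 3 pools richest in them, which leaves 1 ASP+MSG+TFA pool, the differences were 0.23 and 0.36. Over all genes these 2 contrasts had an unadjusted P under 0.05 for 6.14% and 8.41%, and over the members for 2 (2.99%) and 7 (10.4%).

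Hsph1 and Hspa4l are both HSP110-type exchange factors. Hsph1 measured 8.91, 9.24 and 9.26 with TFA, 8.77, 8.88 and 8.96 with MSG, 9.00, 9.03 and 9.36 with ASP, and 8.68, 9.16 and 9.21 with both. Hspa4l measured 8.11, 8.36 and 8.25 with TFA, 7.83, 7.99 and 8.04 with MSG, 8.03, 8.07 and 8.31 with ASP, and 7.99, 8.19 and 8.36 with both. All 3 MSG+TFA pools of Hspa4l lay below the lowest TFA pool, whereas those of Hsph1 reached into the TFA range. The Hspa4l difference with MSG was -0.29 ± 0.11 (adjusted P = 0.780, limma), with 20 of 24 probe sets lower, and that of Hsph1 was -0.27 ± 0.15 (adjusted P = 0.890), with 20 of 22 lower.

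Of the rest of this family, Hspa13 and Hspa1l had the largest differences. Hspa13, a microsomal ATPase, measured 9.04, 9.23 and 9.07 with TFA, 8.93, 8.80 and 8.92 with MSG, 9.29, 8.89 and 8.76 with ASP, and 8.60, 8.72 and 9.03 with both. The pools of MSG+TFA and ASP+MSG+TFA did not overlap with TFA, and the difference with both additives was -0.33 ± 0.13 (adjusted P = 0.436, limma). That Hspa13 difference ranged from -0.41 to -0.08 over the alternatives of the closing section, single pools left out aside. Hspa1l, a testis-rich HSP70 whose liver values were below the median of every array, measured 6.27, 6.13 and 5.80 with TFA, 6.26, 5.87 and 6.26 with MSG, 6.35, 6.29 and 6.72 with ASP, and 5.71, 6.20 and 6.19 with both. The ASP+TFA pools were the highest for Hspa1l, 0.39 ± 0.17 above TFA (adjusted P = 0.454). For the 12 genes of the family, 6, 5 and 6 differences were below zero with MSG, ASP and both.

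Some probe sets are annotated to several HSP70 genes at once and could not be given to 1 member. A probe set annotated to both Hspa1a and Hspa1b measured 5.88, 6.03 and 6.25 with TFA, 6.39, 6.00 and 6.07 with MSG, 6.30, 6.31 and 6.24 with ASP, and 6.36, 6.72 and 6.18 with both. Another, shared by Hspa1a, Hspa1b and Hspa1l, measured 9.64, 9.59 and 9.86 with TFA, 9.36, 9.34 and 9.36 with MSG, 9.33, 9.26 and 10.20 with ASP, and 9.63, 9.75 and 9.97 with both. The 3 MSG+TFA pools were below every TFA pool on the second, and ASP+TFA pool 3 was again the highest. Fitted as features of their own among 22369, these and 6 other shared features reached no adjusted P under 0.440 in the contrasts and the F test.

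HSP90 is the chaperone of signalling proteins. Hsp90aa1, its inducible cytosolic form, measured 10.78, 11.15 and 11.25 with TFA, 10.80, 10.74 and 11.11 with MSG, 10.96, 10.92 and 11.30 with ASP, and 10.67, 11.11 and 11.15 with both. Hsp90ab1, the constitutive form, measured 12.03, 12.17 and 12.21 with TFA, 12.05, 12.11 and 12.20 with MSG, 12.16, 12.22 and 12.17 with ASP, and 11.95, 12.34 and 12.25 with both. All diets overlapped for both genes, and the differences from TFA ranged from -0.17 to 0.00 for Hsp90aa1 and from -0.01 to 0.05 for Hsp90ab1. Hspd1, the barrel subunit, measured 10.93, 11.20 and 10.98 with TFA, 10.89, 11.11 and 10.95 with MSG, 10.92, 10.95 and 11.04 with ASP, and 11.03, 10.82 and 11.14 with both. Hspe1, its lid, measured 9.35, 9.53 and 9.35 with TFA, 9.04, 9.23 and 9.38 with MSG, 9.46, 9.20 and 9.37 with ASP, and 8.73, 9.15 and 9.48 with both. ASP+MSG+TFA pool 1 was the lowest for Hsp90aa1, Hsp90ab1, Hsph1 and Hspe1, and the Hspe1 difference with both additives was -0.29 ± 0.15 (adjusted P = 0.554, limma).

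**Figure D4:**
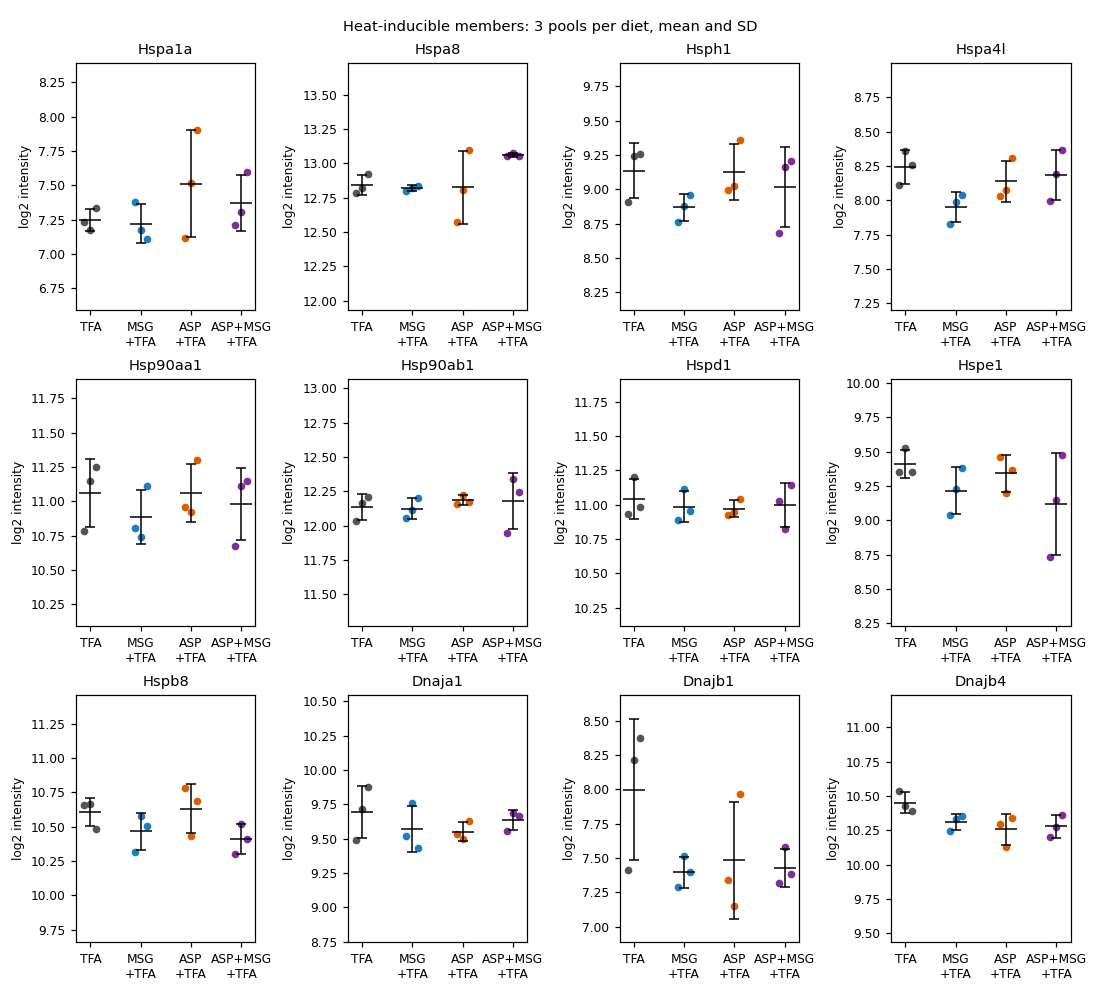
Log2 intensity (vertical axis) of the 12 heat-inducible members with a value of their own, with 3 pools per diet (points), their mean (bar) and SD (error bar); every panel spans the same number of log2 units. TFA pools 2 and 3 stand out for Dnajb1, at 8.21 and 8.37, and the pools of the 4 diets overlap in most panels.

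Small heat shock proteins hold unfolded clients without ATP, and several of them are abundant in muscle. The 7 genes counted here were grouped by their Hspb symbol, Hspb11 among them, and not by what each protein does. All 7 were lower on average than TFA with MSG and with both additives, and 5 with ASP, with median log2 differences of -0.19, -0.18 and -0.08. Of all genes, 48.7%, 47.8% and 42.7% were lower in these comparisons, which share the TFA pools. Some differences were near zero, at -0.003 for Hspb2 with both additives and -0.011 for Hspb6 with MSG. Hspb3, a muscle protein, measured 7.25, 7.36 and 7.21 with TFA, 7.15, 7.00 and 7.00 with MSG, 6.85, 7.16 and 7.31 with ASP, and 6.90, 7.11 and 6.84 with both. Hspb2, its partner in muscle, measured 6.36, 6.50 and 6.63 with TFA, 6.30, 6.34 and 6.15 with MSG, 6.35, 5.84 and 6.58 with ASP, and 6.34, 6.44 and 6.72 with both. The MSG+TFA pools of both genes and the ASP+MSG+TFA pools of Hspb3 lay below every TFA pool, and the Hspb3 difference with both additives was -0.33 ± 0.11 (adjusted P = 0.355, limma). It depended on how the 3 probe sets of Hspb3 were combined, at -0.04 with their median and -0.88 with the bright ones only.

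Hspb9, which is known from testis and was below the median of every array, measured 6.80, 6.89 and 6.89 with TFA, 6.77, 6.59 and 6.24 with MSG, 6.39, 6.68 and 6.66 with ASP, and 6.68, 6.77 and 6.38 with both. No pool of another diet reached the lowest TFA pool, and the differences were -0.32 ± 0.14 with MSG (adjusted P = 0.806, limma), -0.28 ± 0.14 with ASP and -0.25 ± 0.14 with both, all from 1 probe set. Hspb6, a small heat shock protein of smooth and striated muscle, measured 8.27, 8.41 and 8.19 with TFA, 8.34, 8.11 and 8.39 with MSG, 8.51, 8.44 and 8.39 with ASP, and 8.15, 8.26 and 8.16 with both. Every ASP+MSG+TFA pool of Hspb6 lay below every ASP+TFA pool, by -0.26 ± 0.09 (adjusted P = 0.455, limma). Hspb8, which works with the cochaperone Bag3, measured 10.66, 10.66 and 10.49 with TFA, 10.32, 10.57 and 10.50 with MSG, 10.78, 10.43 and 10.69 with ASP, and 10.30, 10.52 and 10.41 with both. Its pools overlapped with TFA in each of the 3 other diets.

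Skeletal muscle markers were highest in the TFA pools, with a median difference of -0.79 with MSG, -0.87 with ASP and -0.63 with both. The mean of 15 of 15 listed markers ranged from 6.66 to 7.12 with TFA and from 5.92 to 6.51 over the 9 remaining pools, and 9 of the 15 passed the test as lower with ASP (limma, adjusted P under 0.05), 0 with MSG and 0 with both. Cryab, a small heat shock protein of lens and muscle whose symbol the rule does not take, measured 7.40, 7.33 and 7.50 with TFA, 7.06, 6.90 and 7.02 with MSG, 6.96, 7.07 and 6.91 with ASP, and 7.19, 7.17 and 7.13 with both. It fell by 0.43 on the log2 scale with ASP (SE 0.08, adjusted P = 0.0478, limma), and the differences of -0.41 with MSG and -0.25 with both additives did not pass (adjusted P = 0.200 and 0.332). A feature of 2 probe sets annotated to both Hspb2 and Cryab did not fall with ASP, at 0.12 ± 0.10 (adjusted P = 0.755, limma). It was at -0.06 with MSG and -0.03 with both additives. The mean over the 7 Hspb genes was 7.61 to 7.69 with TFA, 7.43 to 7.50 with MSG and 7.44 to 7.56 with both additives. In ASP+TFA pools 1 and 2 it was 7.55 and 7.42, so it was below TFA in these pools, as the muscle mean was. ASP+TFA pool 3 was the exception, with a muscle mean of 6.13 and an Hspb mean of 7.68. The part of muscle RNA in these values was not tested, and in bulk tissue fewer cells of a type and less RNA per cell cannot be told apart.

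The DNAJA and DNAJB genes encode the general J-domain partners of HSP70. Dnaja1, a cytosolic one, measured 9.49, 9.71 and 9.88 with TFA, 9.52, 9.76 and 9.43 with MSG, 9.53, 9.49 and 9.63 with ASP, and 9.55, 9.69 and 9.66 with both. Dnajb4, a relative of Dnajb1, measured 10.54, 10.43 and 10.39 with TFA, 10.24, 10.33 and 10.36 with MSG, 10.30, 10.13 and 10.34 with ASP, and 10.20, 10.27 and 10.36 with both. Every Dnajb4 pool of the other diets lay below the lowest TFA pool, with differences of -0.14 ± 0.09 with MSG, -0.19 ± 0.09 with ASP (adjusted P = 0.463, limma) and -0.17 ± 0.09 with both. Dnajb11, a J protein of the endoplasmic reticulum, measured 8.69, 8.86 and 8.75 with TFA, 8.44, 8.49 and 8.75 with MSG, 8.98, 8.91 and 8.51 with ASP, and 8.29, 8.70 and 8.56 with both. Its difference of -0.25 ± 0.13 with both additives had an adjusted P of 0.554 (limma), with 13 of 13 probe sets lower. Dnajb7, which was below the median of every array, measured 5.55, 5.75 and 5.85 with TFA, 5.76, 6.00 and 5.86 with MSG, 5.74, 5.50 and 5.76 with ASP, and 5.72, 5.99 and 5.92 with both, with all diets overlapping. The 12 DNAJB genes had 9, 8 and 7 differences below zero with MSG, ASP and both.

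The DNAJC genes are the most varied, each joining a J domain to another function. Dnajc17, which carries an RNA-binding domain, measured 7.12, 7.25 and 6.96 with TFA, 7.38, 6.98 and 7.12 with MSG, 7.31, 7.25 and 7.52 with ASP, and 7.48, 7.49 and 7.44 with both. Its 3 ASP+MSG+TFA pools lay within 0.05 log2 units of each other and above all TFA and MSG+TFA pools, and the difference from TFA was 0.36 ± 0.11 (adjusted P = 0.317, limma), with 4 of 5 probe sets higher. Dnajc27, which joins the J domain to a Rab-like GTPase, measured 5.84, 5.84 and 5.84 with TFA, 5.98, 5.79 and 6.07 with MSG, 6.17, 6.07 and 6.10 with ASP, and 6.16, 6.18 and 5.91 with both. The ASP+TFA and the ASP+MSG+TFA pools were all above the 3 TFA pools, with differences of 0.27 ± 0.09 (adjusted P = 0.330, limma) and 0.24 ± 0.09 (adjusted P = 0.412). Dnajc27 was below the median of every array, and its value depended on the probe sets used. Its only bright probe set gave -0.46 with ASP and 0.49 with both additives, and the median of its 9 probe sets gave 0.72 and 0.42. Without the 3 acinar-rich pools the difference with both additives was 0.07, with 1 ASP+MSG+TFA pool left.

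Dnajc6 (auxilin, which helps to strip clathrin coats) measured 5.65, 5.69 and 5.86 with TFA, 5.81, 5.63 and 5.83 with MSG, 5.88, 5.87 and 6.13 with ASP, and 5.74, 5.80 and 5.66 with both, all below the array medians. Dnajc9, a nuclear histone chaperone, measured 7.05, 7.20 and 7.19 with TFA, 7.00, 7.06 and 7.00 with MSG, 6.98, 6.91 and 6.96 with ASP, and 7.01, 7.01 and 7.11 with both. The ASP+TFA pools lay above TFA for Dnajc6, by 0.22 ± 0.10 (adjusted P = 0.453, limma), and below TFA for Dnajc9, by -0.20 ± 0.08 (adjusted P = 0.380). Dnajc16 measured 7.58, 7.49 and 7.50 with TFA, 7.41, 7.87 and 7.72 with MSG, 7.66, 7.57 and 7.46 with ASP, and 7.48, 7.40 and 7.72 with both. Dnajc28 measured 7.34, 7.43 and 7.58 with TFA, 7.60, 7.55 and 7.63 with MSG, 7.50, 7.78 and 7.38 with ASP, and 7.47, 7.51 and 7.61 with both. Both genes were 0.15 log2 units above TFA on average with MSG, with no call. Dnajc5b, of the cysteine string family and below the array medians, measured 6.06, 5.88 and 6.28 with TFA, 5.91, 5.96 and 6.27 with MSG, 6.14, 5.82 and 6.73 with ASP, and 6.29, 6.12 and 6.53 with both. The 28 DNAJC genes had 19, 12 and 21 differences below zero in the 3 comparisons, and Dnajc3, an inhibitor of eIF2alpha kinases, is read by 26 probe sets that are 13 identical pairs.

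Pools that did not overlap with TFA were found for 10 members with MSG (14.9%, against 13.2% of all genes), 8 with ASP (11.9%, against 13.4%) and 14 with both (20.9%, against 17.9%). The shares are close to the background in each case. Of the single probe sets, 0 of 687 passed an adjusted P under 0.05 in any comparison, and at an unadjusted P under 0.05 between 34 and 63 did per comparison (4.95% to 9.17%, against 5.72% to 9.81% of all 212138 probe sets).

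Across the 12 pools, several inducible genes varied together, also within diets. Correlations were computed for 78 pairs of 13 features, the 12 heat-inducible members and Hspb1, which is read only by 11 probe sets that also carry the pseudogene Hsp25-ps1 and is therefore no member. Hspb1 measured 8.41, 8.74 and 8.83 with TFA, 8.31, 8.25 and 8.69 with MSG, 8.43, 8.57 and 8.96 with ASP, and 8.52, 8.91 and 8.75 with both. Of the pairs, 71 had a Pearson r above zero, with a median of 0.362. An adjusted P under 0.05 by permutation (100000 resamples, two-sided) was reached by 7 pairs for r and by 6 for Spearman's rho. Apart from Dnaja1 with Dnajb1, the passing pairs all lay among Hsph1, Hsp90aa1, Hspa4l and Hspb1. No share over pairs of all genes was computed. With Hsph1 alone, r was above zero for 11 of 11 heat-inducible members (100%, against 55.44% of all genes). Their median r was 0.528, where that of all genes was 0.048. The pairs share their libraries and are not independent.

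Hsph1 and Hsp90aa1 correlated most, with r = 0.929 (permutation, adjusted P = 0.0023) and rho = 0.944 (adjusted P = 0.0031). Without the 2 pools farthest from the Hsph1 median r was 0.878, without the 3 pools richest in acinar markers 0.871, and for deviations from the diet means 0.936. Hsph1 and Hspa4l had r = 0.890 (permutation, adjusted P = 0.0074) and rho = 0.867 (adjusted P = 0.015), with r = 0.930 without the 2 farthest pools. Hsp90aa1 and Hspb1 had r = 0.877 (permutation, adjusted P = 0.012) and rho = 0.867 (adjusted P = 0.015), with r = 0.921 without the 2 farthest pools. Both kept their size within diets, at 0.926 and 0.930. The pairs of Hsph1 with Hspb1, Hspa4l with Hspb1 and Hspa4l with Hsp90aa1 had r of 0.821, 0.791 and 0.780, rho of 0.846, 0.797 and 0.811, and r of 0.869, 0.846 and 0.782 without the 2 farthest pools (permutation, adjusted P of r 0.030, 0.046 and 0.046, of rho 0.018, 0.040 and 0.038). Dnaja1 and Dnajb1 had r = 0.757 (permutation, adjusted P = 0.046) but rho = 0.664 (adjusted P = 0.131). Hspa1a, the strictly inducible HSP70, was in no passing pair. Its r with Hsph1 was 0.524 (permutation, adjusted P = 0.242), 0.532 within diets and 0.083 without the 2 farthest pools.

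**Figure D5:**
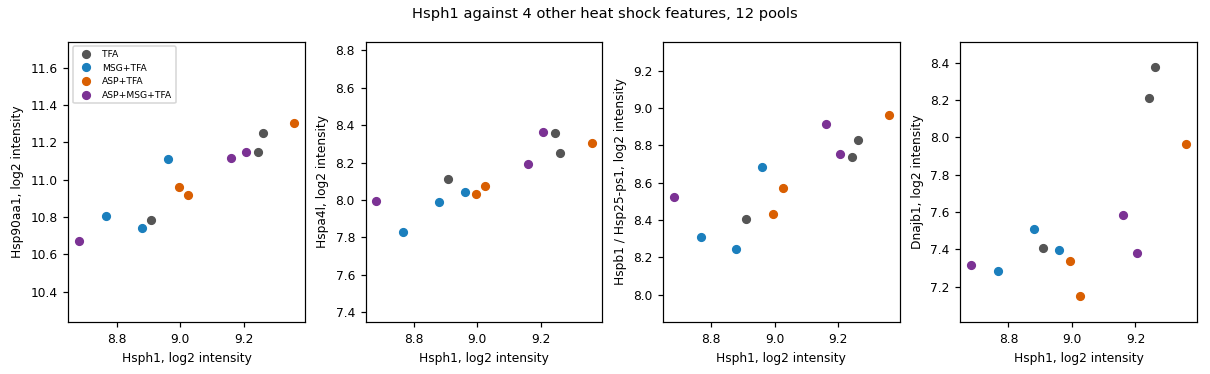
Log2 intensity of Hsph1 (horizontal axis) against Hsp90aa1, Hspa4l, the Hspb1 probe sets and Dnajb1 (vertical axes, all spanning the same number of log2 units) in the 12 pools, coloured by diet. The points of the first 3 panels line up across diets, with r of 0.929, 0.890 and 0.821, and in the last TFA pools 2 and 3 stand above the rest.

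The pools high in Hsph1, Hsp90aa1 and Hspa4l were TFA pools 2 and 3, ASP+TFA pool 3 and ASP+MSG+TFA pools 2 and 3. Within every diet Hsph1 rose from pool 1 to pool 2 to pool 3. Hsp90aa1 was highest in pool 3 and Hspa4l lowest in pool 1 of every diet. The shared pattern thus ran partly along the replicate number, and that relation was not tested. ASP+MSG+TFA pool 1 and MSG+TFA pools 1 and 2 were low. TFA pool 1 was low for Hsph1 and Hsp90aa1, but for Hspa4l it lay at 8.11, above every MSG+TFA pool. MSG+TFA pool 3 reached 11.11 for Hsp90aa1, as did ASP+MSG+TFA pool 2. The correlation with the acinar marker mean over the 12 pools was 0.351 for Hsph1, 0.340 for Hsp90aa1, 0.317 for Hspa4l and 0.592 for Hspb1. Ranked by r with Hsph1 among all 20421 other genes, a choice of reference made after the values were seen, Hsp90aa1 was at rank 2, Hspa4l at rank 3 and Chordc1, an HSP90 cochaperone, at rank 5, behind Nnat at rank 1. The list of 25 cochaperones as a whole did not stand high, with r above zero for 16 (64%, against 55.44% of all genes), a median r of 0.032 (0.048 for all genes) and Ptges3 lowest at rank 17669. Other listed cochaperones and members stood at rank 101 (Ahsa1, which activates the HSP90 ATPase), 120 (Hsp90ab1), 178 (Dnajb1), 197 (Hspe1) and 199 (Stip1, which links HSP70 to HSP90), whereas Fkbp4 stood at 1101, Hspa8 at 4215, St13 at 7358 and Cdc37 at 13155. Dnajb9 and Hspa5, of the endoplasmic reticulum, stood at rank 43 and 66.

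Other genes of protein folding, from lists of known cochaperones, factors and chaperonins, gave no adjusted call in the 3 comparisons with TFA apart from Cryab. Hsf1, the factor of the inducible genes, measured 7.92, 7.83 and 7.82 with TFA, 7.72, 7.77 and 7.84 with MSG, 7.88, 7.83 and 7.86 with ASP, and 7.65, 7.77 and 7.72 with both. With both additives it was -0.14 ± 0.07 from TFA (adjusted P = 0.543, limma), and Hsf2 was 0.02 ± 0.10. Called genes numbered 0 of 6 heat shock factors, 0 of 10 exchange factors, 0 of 25 HSP90 and HSP70 cochaperones, 0 of 9 TRiC subunits, 0 of 5 prefoldins, 0 of 11 mitochondrial chaperones and proteases, and 0 of the 3 genes of the endoplasmic reticulum left out by the rule, in each of the 3 comparisons. Of 17 other heat-inducible genes, 1 was called with ASP, and 1, 3 and 9 had an unadjusted P under 0.05 with MSG, ASP and both, where 5.81%, 10.1% and 10.1% of all genes did. The 9 of 17 with both additives lay above that share, and the median log2 difference of the 17 was -0.064. The mean of the 17 was 7.66, 7.62 and 7.33 in the ASP+MSG+TFA pools. It was 7.65 to 7.77 with TFA, 7.57 to 7.71 with MSG and 7.64 to 7.70 with ASP, so only ASP+MSG+TFA pool 3 lay below the other diets. Of the 10 exchange factors 3, 1 and 0 had an unadjusted P under 0.05 with MSG, ASP and both. The counts were 1, 2 and 2 of 11 mitochondrial genes and 0, 0 and 1 of 25 cochaperones. Heat shock factors and prefoldins had 0 in each of these comparisons. Called with ASP were 0.284% of all genes.

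The genes of these lists with the smallest P in the F test are given by their log2 difference from TFA with MSG, ASP and both additives, with none passing except Cryab. Bag2, an inhibitor of the ubiquitin ligase that works with HSP70, had 0.46, 0.35 and 0.26, and Bag4 0.20, 0.03 and 0.01. Among cochaperones, Ttc4 had -0.20, 0.06 and 0.05, and Sugt1, an HSP90 partner, -0.11, -0.14 and -0.22. Of TRiC, the cytosolic chaperonin that folds actin and tubulin, Cct4 had -0.08, -0.08 and -0.24 and Tcp1 -0.13, -0.02 and -0.22. In TRiC, 3 of 9 subunits had an unadjusted P under 0.05 with both additives, and 0 with MSG or ASP alone, where all genes gave 10.1%, 5.81% and 10.1%. Pfdn5, of prefoldin, had -0.34, -0.33 and -0.23 and Vbp1 -0.11, -0.17 and -0.04. In mitochondria, the protease Htra2 had 0.40, 0.51 and 0.01 and Clpx -0.24, 0.16 and 0.32. Hmox1, the oxidative stress enzyme heme oxygenase, had 0.02, -0.41 and -0.33, with an adjusted P of 0.288 with ASP (limma), and Hspa5, the main HSP70 of the endoplasmic reticulum, had -0.23, 0.04 and -0.28.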

How the data were processed

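RNA of mouse liver was measured on 12 arrays, 3 per diet, each of RNA pooled from 5 mice. The authors summarized and background-adjusted probe sets with GCRMA in Partek and normalized them by quantiles, so that each deposited value is a linear-scale, normalized intensity. These were log2-transformed here with no value added. Of 241576 probe sets, 4672 with several symbols and 24766 with none were left out of the gene values. Diets were compared with limma 3.58.1 (lmFit and eBayes, 1 model over 12 arrays) in R 4.3.3, with tables read by the data.table package (version 1.17.8), and P-values were adjusted over 20422 genes with the Benjamini-Hochberg method. Calling was checked on simulated arrays of known change. P-values of limma set a difference between diets against the spread between pools. Those of the correlations come from shuffling the 12 pools without regard to diet or replicate number. Members, lists and alternatives were chosen with earlier results of these data known. Genes given with every pool were the heat-inducible members, the 12 smallest P of the F test, and the 3 largest changes each way against TFA and in the interaction. Hsf1 and Cryab were given by pool too. The other genes of the lists with the smallest P were given only by their differences from TFA. Correlations and figures used Python 3.11.15, numpy 2.4.6, pandas 2.3.3, scipy 1.17.1 and matplotlib 3.10.9. Alternatives are given in the closing section. The replicate numbers were not used to pair the samples in the main fits.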

Additional observations from a re-analysis of the deposited data

How the results depend on the processing

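The count of members called at an adjusted P under 0.05 (limma) stayed at 0 in every comparison under each alternative run, with 1 exception. With array weights 3 members were called with ASP against TFA, where 670 of all genes were called in place of 58: Dnajb1 (-0.80, adjusted P = 0.0337), Dnajb4 (-0.28, adjusted P = 0.0496) and Hspb2 (-0.54, adjusted P = 0.0413). The weights were 3.33 for ASP+TFA pool 2 and 0.459 and 0.355 for pools 1 and 3, so the call leans on 1 pool. Alternatives were a further quantile normalization, median centring, the median of probe sets, bright probe sets only, trend and robust variance, array weights, a replicate block, a 1.4-fold change, only the 6 arrays compared, and the methods' analysis of variance. Added after seeing the data were several-symbol probe sets as features and leaving out the 3 pools richest in acinar markers. Leaving out each pool in turn gave 0 to 0 calls in all comparisons.

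With the median of probe sets, Hspa8 turned to -0.0455 for ASP+MSG+TFA against ASP+TFA and to -0.0143 against MSG+TFA. With bright probe sets only, which left 60 members, Dnajc27 turned to -0.455 with ASP and Dnajc30 to 0.0687 with both additives. None of these passed the test on either side.

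Over all genes, same-numbered pools mostly did not deviate together (r from -0.342 to 0.354 over 18 pairs, 4 over 0.1). That check does not cover single genes, and Hsph1 rose from pool 1 to pool 3 within every diet. A fit with the replicate number as a block called 0 members in each comparison. Counts of members at an unadjusted P under 0.05 moved more: 1 to 16 in the F test, 3 to 8 with MSG, 3 to 14 with ASP, 4 to 16 with both, 0 to 8 for the interaction, 2 to 14 and 2 to 6 for both additives against ASP+TFA and MSG+TFA, and 0 to 6 for ASP+TFA against MSG+TFA. Leaving out a pool gave 0 to 5 with MSG, 3 to 9 with ASP and 2 to 9 with both. With 3 pools per diet, intervals that reach beyond a 1.4-fold change remain for 9, 6 and 10 members with MSG, ASP and both.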
